A study of Homo sapiens with 8 samples.

Results

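Chromatin accessibility was examined at 10 genes that belong to the myeloid and mast cell lineages, in a human erythroid cell line. The genes were SPI1, CEBPA, CEBPB, CEBPE, GFI1, IRF8, MITF, HDC, CPA3 and MS4A2. Members were the peaks of 4 ATAC-seq libraries whose summit lay inside 1 of these genes or within 50 kb of 1 of its transcription start sites. They numbered 35 of 30240 peaks in PBS replicate 1, 33 of 33616 in PBS replicate 2, 29 of 29269 in SCF replicate 1 and 37 of 33324 in SCF replicate 2. Peaks that overlapped between libraries were merged, which gave 41 regions at the 10 genes out of 43654 in all.

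The cells were HUDEP-2, an established line of immortalized erythroid progenitors derived from cord blood. All 4 libraries came from cells with a control guide (sgControl, Scramble), which the methods of the study describe as a sorted population carrying the CRISPR interference repressor KRAB-dCas9, so the repressor was present in both groups. Cells were kept for 5 h without growth factors and then received phosphate-buffered saline (PBS) or 50 ng/ml stem cell factor (SCF), the ligand of the receptor tyrosine kinase KIT, for 1 h, with 2 replicates per treatment and 50000 cells per library. The expansion medium held SCF, erythropoietin, dexamethasone and doxycycline, so every cell had met SCF before the starvation. The other 4 samples of the series, which carried a guide against EGR1 (sgEGR1), were not analysed here. The comparison asks which genes of the alternative lineages are accessible in erythroid cells, and whether 1 h of SCF changes them.

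Haematopoietic lineages are set by small groups of transcription factors that open and close regulatory DNA. PU.1, encoded by SPI1, and the C/EBP family drive granulocyte and monocyte genes, and PU.1 and the erythroid factor GATA1 antagonize each other. Mast cells depend on KIT signalling, as early erythroid progenitors do, and use MITF and GATA factors to switch on effector genes such as HDC, CPA3 and MS4A2.

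Open start sites, defined by a peak no farther than 1 kb from a start of the gene in all 4 libraries, were found at 5 genes. These were SPI1, CEBPA, CEBPB, CEBPE and MITF, of which CEBPE counted through the start of a transcript without a defined coding sequence. The start sites of IRF8, HDC and MS4A2 were closed, with no such peak in any library, although each of these genes had at least 1 region elsewhere that was called in all 4 libraries. GFI1 had a start-site peak in the PBS libraries alone, and CPA3 in 1 SCF library. No region differed between SCF and PBS by limma after Benjamini-Hochberg adjustment.

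Some regions are shown by sequence because the results turn on them. They are the CEBPB and MITF regions that differed most between treatments, the CEBPE start and the strong site downstream of CEBPE, and the strongest region of GFI1, IRF8, HDC, CPA3 and MS4A2, whose own starts lacked a peak in at least 1 library. Each stretch is the 100 bases on either side of the summit and the summit base, read 5′ to 3′ on the plus strand of hg19. Capitals mark matches, on either strand, to words for GATA factors (AGATAA or TGATAA), AP-1 (TGANTCA), EGR factors (GCGTGGG), PU.1 (GAGGAAGT), C/EBP (TTGCNNAA), the E-box bound by MITF (CACGTG) and RUNX (TGTGGT), where N is any base. Distances are signed, negative upstream and positive downstream, and run from the nearest annotated start of the named gene unless stated otherwise. Regions whose window overlaps a UTR are not printed.
CEBPB −24.7 kb (chr20:48782576-48782776): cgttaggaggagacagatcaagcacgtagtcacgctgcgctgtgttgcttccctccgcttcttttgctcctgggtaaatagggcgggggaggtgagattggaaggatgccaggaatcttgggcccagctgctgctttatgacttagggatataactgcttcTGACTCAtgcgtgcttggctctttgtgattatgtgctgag
CEBPB 6.8 kb (chr20:48814071-48814271): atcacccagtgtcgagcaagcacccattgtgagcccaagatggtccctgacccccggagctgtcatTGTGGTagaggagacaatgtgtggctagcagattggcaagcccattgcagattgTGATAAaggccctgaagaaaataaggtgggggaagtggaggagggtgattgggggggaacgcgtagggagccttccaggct
CEBPE −0.655 kb (chr14:23590020-23590220): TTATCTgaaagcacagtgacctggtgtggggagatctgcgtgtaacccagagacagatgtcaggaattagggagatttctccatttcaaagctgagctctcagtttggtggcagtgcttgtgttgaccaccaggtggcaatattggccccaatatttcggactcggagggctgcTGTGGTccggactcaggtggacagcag
CEBPE 6.36 kb (chr14:23582008-23582208): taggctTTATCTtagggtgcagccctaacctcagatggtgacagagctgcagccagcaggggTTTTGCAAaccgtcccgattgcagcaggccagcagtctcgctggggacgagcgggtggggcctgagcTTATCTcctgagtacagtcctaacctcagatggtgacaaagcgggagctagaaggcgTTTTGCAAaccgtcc
GFI1 33.7 kb (chr1:92912208-92912408): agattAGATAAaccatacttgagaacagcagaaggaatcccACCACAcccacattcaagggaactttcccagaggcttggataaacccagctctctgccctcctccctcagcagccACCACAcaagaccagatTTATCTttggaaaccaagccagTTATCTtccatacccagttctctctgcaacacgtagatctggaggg
IRF8 2.61 kb (chr16:85950155-85950355): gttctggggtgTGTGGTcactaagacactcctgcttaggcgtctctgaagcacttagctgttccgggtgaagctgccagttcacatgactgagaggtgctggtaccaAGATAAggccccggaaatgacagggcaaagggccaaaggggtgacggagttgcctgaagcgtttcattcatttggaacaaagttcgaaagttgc
MITF −2.28 kb (chr3:69841179-69841379): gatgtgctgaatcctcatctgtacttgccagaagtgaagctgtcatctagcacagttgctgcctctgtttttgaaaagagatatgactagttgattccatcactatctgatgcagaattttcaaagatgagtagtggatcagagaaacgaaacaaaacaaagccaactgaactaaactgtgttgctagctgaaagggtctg
HDC 2.43 kb (chr15:50552983-50553183): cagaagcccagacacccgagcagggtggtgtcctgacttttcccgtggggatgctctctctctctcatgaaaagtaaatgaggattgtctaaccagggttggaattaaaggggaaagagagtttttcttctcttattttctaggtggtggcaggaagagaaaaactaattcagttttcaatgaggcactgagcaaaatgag
CPA3 −24.6 kb (chr3:148558345-148558545): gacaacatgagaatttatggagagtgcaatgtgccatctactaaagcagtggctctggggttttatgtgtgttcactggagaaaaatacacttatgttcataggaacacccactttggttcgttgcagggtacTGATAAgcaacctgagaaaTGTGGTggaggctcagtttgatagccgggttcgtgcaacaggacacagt
MS4A2 38.8 kb (chr11:59894871-59895071): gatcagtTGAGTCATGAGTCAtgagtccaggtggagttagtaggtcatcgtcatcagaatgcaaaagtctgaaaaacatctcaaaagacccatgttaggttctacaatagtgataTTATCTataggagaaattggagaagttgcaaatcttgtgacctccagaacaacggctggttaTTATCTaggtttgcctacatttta
The regions at GFI1, IRF8, CPA3 and MS4A2 and both shown CEBPE regions hold a GATA word, as does the CEBPB region at 6.8 kb. The MITF and HDC stretches hold none of the 7 kinds of word. The CEBPE region at 6.36 kb repeats a GATA word followed by a C/EBP word within the window.

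Read totals are unknown from peak lists. Depth estimated from the genome-wide background, with PBS replicate 1 set to 1, was 1.42 for the second PBS library and 0.883 and 0.843 for the SCF libraries, so the SCF libraries were the shallower ones. The lowest summit pileup, the number of fragments over a called summit, was between 5 and 7 in every library. Absence of a peak therefore says only that no site passed the caller at that depth. Markers of the labelled cell type were accessible: 15 of 16 erythroid genes were open at a start site, GATA1, KLF1 and HBB among them, and ALAS2 was the exception with a peak in 1 library.

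Of the 41 regions, 26 were called in all 4 libraries, 7 in 2 or 3 libraries and 8 in 1 library. Over the whole genome 51.3% of regions were called in all 4 libraries. By position, 7 regions lay at a start of the gene itself, 8 at a start of another protein-coding gene within reach, and 26 elsewhere. To compare regions within a library, each peak was given a percentile rank by its fold enrichment (100 is the highest). Fold enrichment is the ratio of summit pileup to local background, with 1 added to each. Median ranks over the called libraries were 45 for the genes' own starts, 80.7 for the starts of neighbouring genes and 37.3 for the other regions. Several of the high-ranked peaks thus lay at the starts of neighbouring genes, namely PSMC3 and SLC39A13 upstream of SPI1, ACIN1 and SLC7A8 beside CEBPE, and PEDS1 upstream of CEBPB.

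**Figure D1:**
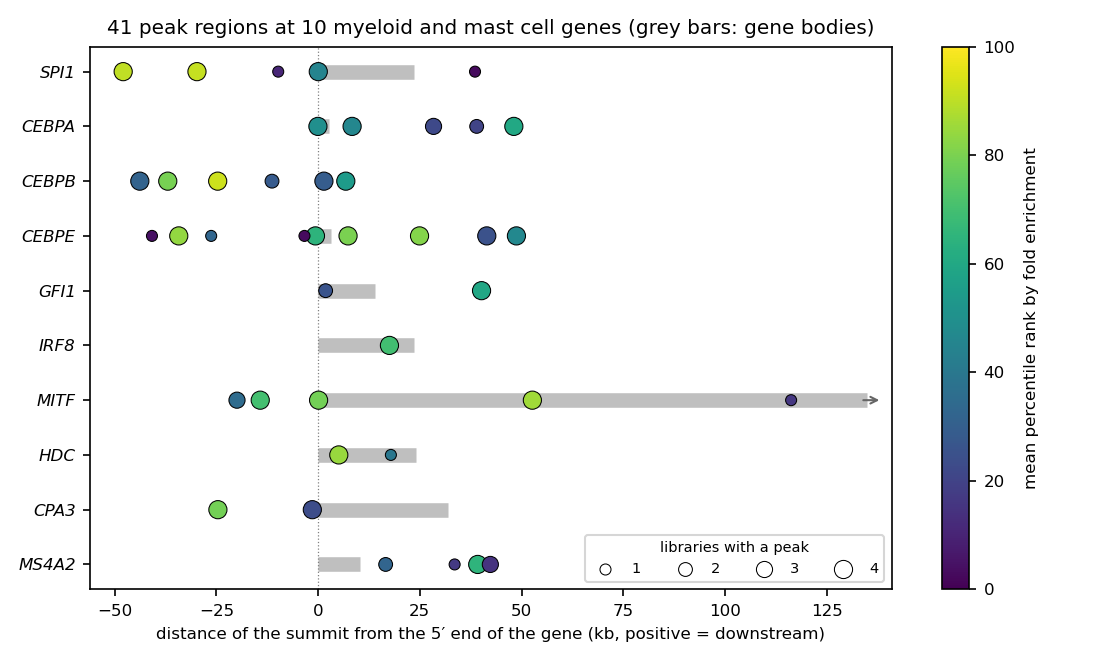
Position of the 41 regions at the 10 genes. The x axis gives the distance of the summit from the 5′ end of the gene in kb, grey bars are gene bodies (MITF runs past the edge), point size is the number of libraries with a peak and colour the mean percentile rank. IRF8 has a single region, inside the gene, whereas CEBPE has 9.

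SPI1 encodes PU.1, the ETS factor required for monocytes and B cells. Its start lies in a region at chr11:47398349-47400425 that was called in every library. Summit pileups were 24 and 38 fragments in PBS replicates 1 and 2 and 48 and 34 in SCF replicates 1 and 2. Ranks were 26.1 and 46.2 with PBS and 57.2 and 50.3 with SCF, so the groups did not overlap by rank, although the PBS replicates were farther apart than the group means. On the log2 scale, fold enrichment in SCF minus PBS was 0.41 (SE 0.227, 95% confidence interval −0.073 to 0.894, limma adjusted p = 0.759, n = 2 per group). With the recovered pileup in place of fold enrichment it was 0.72 (limma adjusted p = 0.613). Downstream of the start, the PBS libraries had a separate weaker peak of the same region, with 16 and 24 fragments. Each SCF library had 1 peak over the region, and that of SCF replicate 2 overlapped the weaker PBS peaks. Within 50 kb the gene had no other region called in all 4 libraries except those at the starts of SLC39A13 and PSMC3. The SLC39A13 start, the highest-ranked region of the window, had pileups of 110 and 169 with PBS and 112 and 91 with SCF. Its ranks of 87.9 to 95.7 overlapped between treatments. A pair of regions inside the window, at 38.4 kb in an intron of MYBPC3 and at −9.81 kb, were each called in 1 library with 6 and 7 fragments, and the latter held the only PU.1 word among the 41 regions.

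CEBPA encodes C/EBPα, which commits progenitors to the granulocyte and monocyte path. The peak at its single start (chr19:33793073-33794074) had 43 and 58 fragments with PBS and 52 and 27 with SCF. SCF replicate 2 was the lowest library and SCF replicate 1 had the highest rank (64.1), so the treatment groups overlapped. The log2 difference was −0.05 (SE 0.256, interval −0.596 to 0.494, limma adjusted p = 0.988). The window held 4 more regions, all intergenic and downstream of the gene. Of these, 2 were called in all 4 libraries. The region at 48.1 kb (chr19:33745009-33745762), the highest-ranked of the gene, had pileups of 28 and 47 with PBS and 25 and 28 with SCF, with a C/EBP word beside the summit. Its log2 difference was −0.16 (SE 0.194, limma adjusted p = 0.94), and ranks overlapped. The region at 8.35 kb had 19 and 30 fragments with PBS and 17 and 25 with SCF, each replicate 2 above its replicate 1. Between them, a region at 39 kb was called in 2 libraries and one at 28.4 kb in 3 libraries.

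CEBPB encodes C/EBPβ, an intronless gene whose product acts in monocytes and macrophages. A region over its start and most of the gene (chr20:48806706-48808967) was called in every library, as 1 peak in each first replicate and as 2 peaks in each second replicate. Peaks that reached the start had 43 and 48 fragments with PBS and 46 and 42 with SCF. By fragments these start peaks were within the range of those of CEBPA, but their ranks were 23.3 to 29, with the lowest mean of the open starts. The local background under them was 7.35 to 9.63 fragments, against 4.4 to 7.37 under the CEBPA start and 3.11 to 5.7 under the MITF start. A fold enrichment divides by that background, and the part of background in these ranks was not tested. The region's log2 difference was 0.02 (SE 0.222, interval −0.452 to 0.494, limma adjusted p = 0.993), and neither treatment stood above the other. This value used the highest peak of each library in the region, and these were not at the same site. Summits lay near the start in PBS replicate 1 (48807135) and SCF replicate 2 (48807248). They lay downstream in PBS replicate 2 (48808811) and SCF replicate 1 (48808791). The value is therefore not a difference at the start itself.

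A pair of further CEBPB regions stood higher by rank in both SCF libraries than in both PBS libraries. The region at 6.8 kb (chr20:48813902-48814405, intergenic) was the only member with a rank gain, meaning that the lowest rank with SCF exceeded the highest with PBS by 10 points or more. Such gains were 2.55% of all regions called in every library, and losses by the mirrored rule, which no member met, were 3.04%. Pileups were 21 and 27 with PBS and 32 and 32 with SCF, and ranks 43.6 and 48.4 with PBS and 58.7 and 67.4 with SCF. The deeper PBS replicate 2 thus had fewer fragments there than either SCF library. The log2 difference was 0.42 (SE 0.201, interval −0.00595 to 0.852, limma adjusted p = 0.727), and 0.72 with the recovered pileup (limma adjusted p = 0.613). The region at −24.7 kb (chr20:48782253-48783099), in an exon of the non-coding gene LINC01275, was the highest-ranked of all 41. It had 53 and 75 fragments with PBS and 76 and 64 with SCF, ranks of 84.9 and 89.6 with PBS and 97.5 and 97.4 with SCF, and an AP-1 word near the summit. Its log2 difference was 0.36 (SE 0.111, interval 0.128 to 0.599, limma adjusted p = 0.613). Neither difference passed the adjusted threshold of 0.05. The remaining CEBPB regions were the PEDS1 start, with 59 and 86 fragments with PBS and 55 and 58 with SCF and ranks that overlapped between treatments, a region at −43.8 kb with 11 to 15 fragments, and one at −11.3 kb called in 2 libraries.

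CEBPE encodes C/EBPε, which acts late in granulocyte maturation. A peak upstream of its 5′ end (summit at −0.655 kb, chr14:23589792-23590424, intergenic) was called in all libraries. It counts as a start peak through the start of a transcript annotated without a defined coding sequence. With starts of protein-coding transcripts alone, CEBPE had a start peak in 0 libraries, and 4 of the 10 genes were open and 4 closed. The peak had 40 and 46 fragments with PBS and 46 and 35 with SCF. Ranks were 60.5 and 60.3 with PBS and 68.6 and 69.2 with SCF, without overlap, and the log2 difference was 0.22 (SE 0.177, interval −0.155 to 0.598, limma adjusted p = 0.873). The window was the most crowded of the 10, with 9 regions, 5 of them at starts of the neighbours ACIN1 and SLC7A8. Among all protein-coding genes 82.4% had fewer regions within the same distance. Away from neighbouring starts, the region at 6.36 kb (chr14:23581661-23582611, intergenic) reached 68 and 115 fragments with PBS and 91 and 79 with SCF. It is named here because of its words and height, after its values were seen. Its ranks of 73.1 to 85.2 were above those of the CEBPE start in every library, and the treatments overlapped (log2 difference 0.04, SE 0.15, limma adjusted p = 0.983). The SLC7A8 start (summit at −34.3 kb), the highest-ranked region of the window, had ranks of 74.9 and 82.1 with PBS and 88 and 89.5 with SCF (log2 difference 0.25, SE 0.131, limma adjusted p = 0.75).

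GFI1 encodes a zinc-finger repressor of granulocyte development and a paralog of the erythroid repressor GFI1B. Around its 5′ end (chr1:92950545-92951748, over an intron and an internal start) peaks were called in both PBS libraries and in neither SCF library. The highest peaks had 15 fragments in PBS replicate 1 and 18 in PBS replicate 2, with ranks of 28.1 and 24.1. Their summits were not at the same site, at 92950636 and 92951405. A further peak of PBS replicate 1, with its summit at 92951500, had 12 fragments and a rank of 13.9. The merged region was the only member called in one treatment alone in this way, a class that held 2.37% of all regions. No member was called in both SCF and neither PBS library (1.65% of all regions). Both SCF libraries were shallower than both PBS libraries, and the part of depth in this result was not tested. No fold change can be given, since the lists hold no value where no peak was called.

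The other GFI1 region lay at 33.7 kb (chr1:92911823-92912787, intergenic) and was called in every library. It had 13 and 32 fragments with PBS and 11 and 23 with SCF. Both second replicates stood above both first replicates, with ranks of 77.3 and 84.1 against 39.3 and 38.2, so the spread within each treatment was far wider than the distance between treatments. The log2 difference of 0.08 (SE 0.289, interval −0.531 to 0.698, limma adjusted p = 0.979) had the largest SE of the 26 regions tested. Its window carried 3 GATA and 2 RUNX words.

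IRF8 encodes the interferon regulatory factor that directs monocyte and dendritic cell development. None of its 4 groups of annotated start sites had a peak in any library. Its 5′ end was rich in CpG, with an observed to expected ratio of 1 in the 500 bp on each side, and 85.1% of genes in the upper tercile by this ratio were open. The single region of the gene was at chr16:85949961-85950505, in an intron 17.5 kb from the 5′ end and 2.61 kb past the nearest internal start. It was called in all 4 libraries with 18 and 31 fragments with PBS and 28 and 21 with SCF. Ranks of 62.8 to 77.8 overlapped between treatments, and the log2 difference was 0.02 (SE 0.184, interval −0.367 to 0.416, limma adjusted p = 0.991), or 0.34 with the recovered pileup (limma adjusted p = 0.829). Of all protein-coding genes 11.8% had fewer regions than this within the same reach.

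MITF encodes the basic helix-loop-helix factor needed for mast cells and melanocytes, and it has a series of alternative first exons. Of 6 groups of start sites along the gene, the 5′-most had a peak in all 4 libraries and the other 5 had none in any library. At the 5′-most start (chr3:69788147-69789462) pileups were 49 and 79 with PBS and 48 and 42 with SCF. Its ranks of 74.1 to 84 were the highest of the 10 genes' starts and overlapped between treatments (log2 difference −0.04, SE 0.15, interval −0.358 to 0.28, limma adjusted p = 0.981). An intronic region 52.7 kb from the 5′ end, upstream of an internal start (−2.28 kb, chr3:69840718-69841519), had 40 and 64 fragments with PBS and 51 and 55 with SCF. By rank it was higher in both SCF libraries, at 89.6 and 94.9 against 74.9 and 83.9. The log2 difference was 0.34 (SE 0.128, interval 0.0634 to 0.609, limma adjusted p = 0.669), again short of the adjusted threshold. Upstream, the region at −14.2 kb had 28 and 35 fragments with PBS and 28 and 20 with SCF, and it was the only 1 of the 26 whose ranks were lower in both SCF libraries (70.1 and 63.8 against 72.7 and 73.8; limma adjusted p = 0.934).

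None of the 3 effector genes of mast cells was open at its start in all 4 libraries. HDC encodes histidine decarboxylase, the enzyme that makes histamine. Its 3 groups of starts had no peak in any library, yet an intronic region 5.08 kb inside the gene (2.43 kb past the nearest start, chr15:50552618-50553705) was among the highest members, with 84 and 116 fragments with PBS and 59 and 82 with SCF. Ranks were 89.6 and 87 with PBS and 73 and 88.7 with SCF, so SCF replicate 1 alone was low and the groups overlapped. The log2 difference was −0.18 (SE 0.139, interval −0.475 to 0.118, limma adjusted p = 0.866), the lowest of the 26. None of the 7 kinds of word occurred beside this summit.

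CPA3 encodes carboxypeptidase A3, a protease of mast cell granules. A small peak just upstream of its 5′ end (chr3:148581393-148582166) was called in every library with 12 and 9 fragments with PBS and 8 and 8 with SCF. In SCF replicate 2 its edge lay 917 bp from the start, and in the other libraries 1022 to 1054 bp, which is why the gene counted as open in 1 library. All 4 values were near the lowest pileup that the lists hold, and ranks overlapped (log2 difference −0.13, SE 0.25, interval −0.663 to 0.402, limma adjusted p = 0.962). The stronger region at −24.6 kb (chr3:148557869-148558785) lay in an intron of the neighbouring carboxypeptidase gene CPB1. It had 30 and 47 fragments with PBS and 27 and 31 with SCF, with overlapping ranks of 71.4 to 87.8 (log2 difference −0.05, SE 0.153, limma adjusted p = 0.975).

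MS4A2 encodes the β chain of the high-affinity IgE receptor. Its start had no peak in any library, and all 4 of its regions were intergenic and downstream, the nearest at 16.2 kb. The region at 38.8 kb (chr11:59894637-59895302) was called in all libraries with 24 and 38 fragments with PBS and 18 and 29 with SCF. Each second replicate exceeded its first (ranks 60.4 and 70.1 with PBS, 45.8 and 83.5 with SCF), and the treatments overlapped (log2 difference 0.01, SE 0.224, interval −0.462 to 0.49, limma adjusted p = 0.995). The other 3 regions were called in 1, 2 and 3 libraries.

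**Figure D2:**
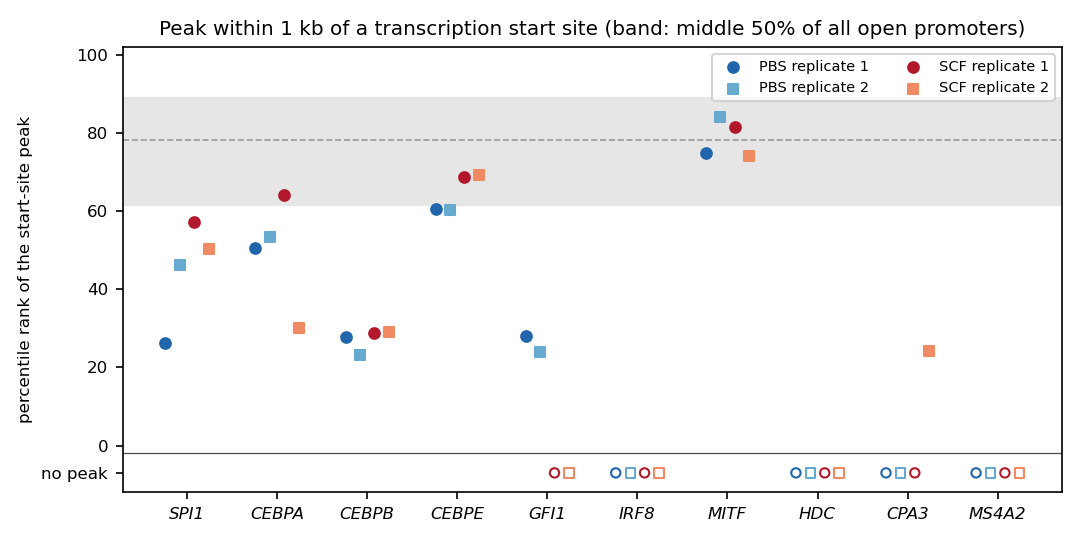
Percentile rank by fold enrichment of the highest peak within 1 kb of a start of each gene, 1 point per library (blue PBS, red SCF, circles replicate 1, squares replicate 2). Open symbols at the bottom mark libraries without such a peak. The dashed line and band are the median and the middle 50% of all open protein-coding promoters, and MITF and CEBPE have mean ranks inside the band, while SPI1, CEBPA and CEBPB have means below it.

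Ordered by mean start rank, MITF (78.6) stood above CEBPE (64.7), CEBPA (49.5), SPI1 (45) and CEBPB (27.3). The 4 ranks of MITF were all above the 4 ranks of CEBPE, whereas CEBPE and CEBPA, CEBPA and SPI1, and SPI1 and CEBPB each overlapped. Over all protein-coding genes with an open start, the median rank was 78.2 and the middle 50% ran from 61.5 to 89.1. Thus 1 of the 5 open genes was above the median. The open erythroid markers had a median of 48.4, so low start ranks were not particular to the 10 genes. Counted as genes, 5 of 10 were open and 3 of 10 closed, against 60.7% open and 32.1% closed among 20163 protein-coding genes. CpG content is set beside openness as a description, and their relation was not tested. In the lowest tercile, where 25.7% of all genes were open, SPI1 and CEBPE were open and HDC, CPA3 and MS4A2 were not. CEBPE counted there through the start of a transcript without a defined coding sequence. In the highest tercile, where 85.1% of all genes were open, CEBPA, CEBPB and MITF were open. GFI1 was open in the PBS libraries alone and IRF8 was closed. In a bulk sample, a site open in fewer cells and a site less open in every cell cannot be told apart.

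**Figure D3:**
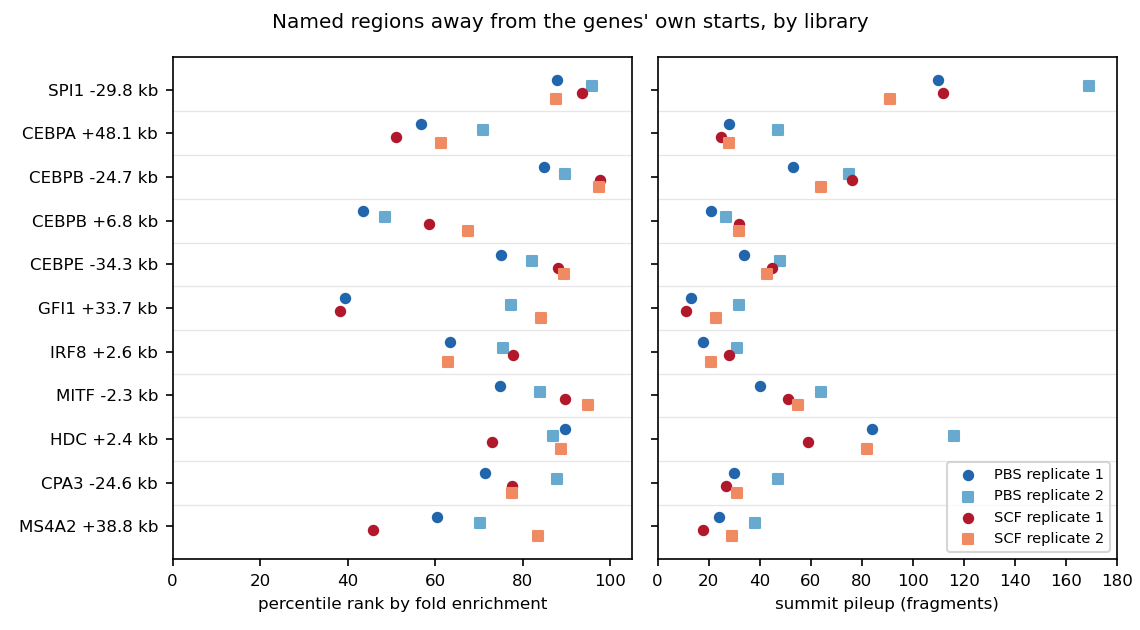
Named regions away from the genes' own starts, with the percentile rank on the left and the summit pileup in fragments on the right, 1 point per library. CEBPB at −24.7 kb and at 6.8 kb and MITF at −2.28 kb have both SCF ranks above both PBS ranks, as does the SLC7A8 start beside CEBPE, and GFI1 at 33.7 kb separates by replicate number instead.

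The 2 treatments were compared over all 26 regions with a value in every library. The median log2 difference was 0.01 and the range −0.18 to 0.42, against a median of −0.00108 over 22398 regions of the genome. At the 10 genes 14 regions were higher and 12 lower with SCF. No member passed a limma adjusted p of 0.05 (lowest 0.613), nor did any region of the genome (lowest 0.437). The study itself reported sites that gained and sites that lost accessibility with SCF. It used MAnorm and a fold-change cut-off, so method and threshold differ from those used here. At an unadjusted limma p under 0.05 there were 2 of 26 members, or 7.69%, both named above (CEBPB at −24.7 kb and MITF at −2.28 kb), against 6.85% of all regions, so the members' share was near the background. With the recovered pileup there were 3 of 26, the SPI1 start and CEBPB at −24.7 kb and at 6.8 kb, and MITF at −2.28 kb was no longer among them. Over the 22398 regions of the genome, 854 higher and 746 lower with SCF met the same unadjusted threshold by pileup. By rank, both SCF libraries stood above both PBS libraries in 8 of 26 regions and below them in 1, where the genome gave 16% and 19.3%. The 8 include the starts of the neighbouring genes PSMC3, ACIN1 and SLC7A8, with rank gaps of 1.37, 0.376 and 5.87 points. These counts were not tested. The number of peaks at the 10 genes was 34 ± 1.41 per PBS library and 33 ± 5.66 per SCF library (SD, n = 2 each), a difference smaller than the spread between replicates (two-sided exact permutation p = 1, where 2 against 2 libraries cannot give less than 0.333). On simulated data with normal noise, 195 of 200 regions changed by 1 on the log2 scale were recovered in this design, with 4 false calls. The noise followed the mean signal alone, so regions of equal mean had the same spread, which real regions need not have. The largest difference among the members was 0.42, so this simulation does not give the power at these regions. At the regions other than CEBPB at −24.7 kb and MITF at −2.28 kb, the intervals included changes in both directions.

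**Figure D4:**
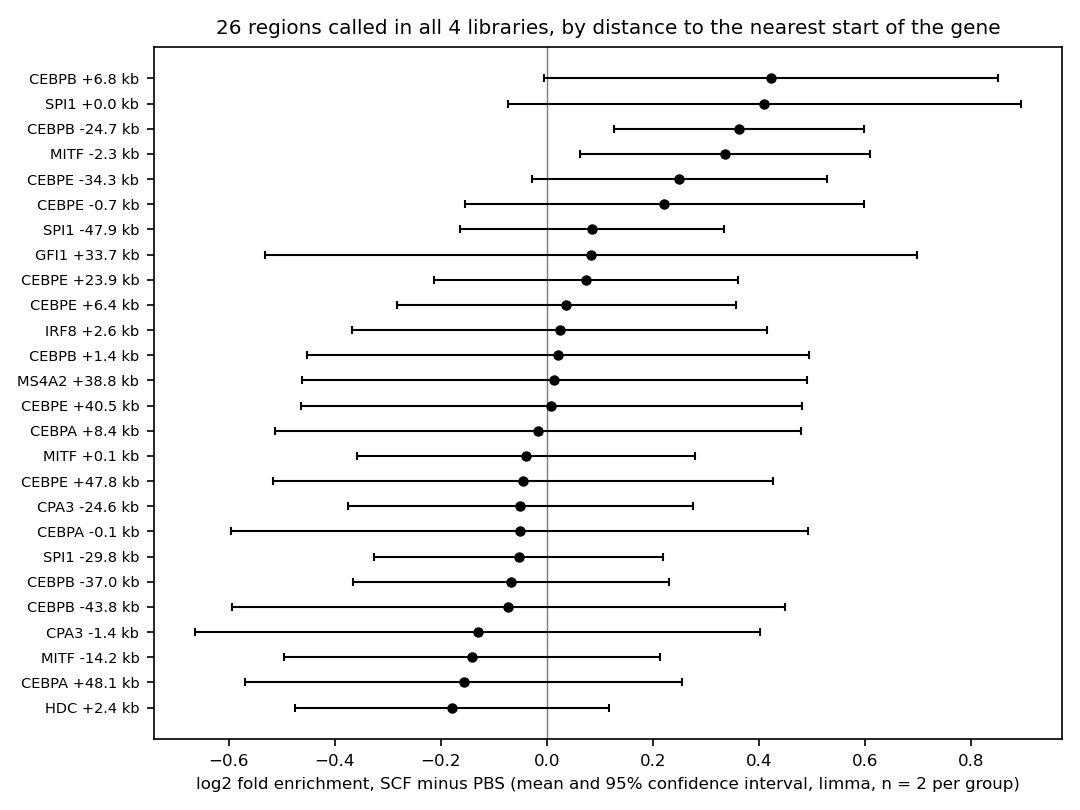
Log2 fold enrichment in SCF minus PBS for the 26 regions called in all 4 libraries, with 95% confidence intervals from limma (n = 2 per group). Regions are named by gene and distance to its nearest start. The points run from −0.18 at HDC to 0.42 at CEBPB, and the intervals of CEBPB at −24.7 kb and MITF at −2.28 kb alone leave out 0 before adjustment.

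Sequence words were counted within 100 bp of every summit. A GATA word occurred in 16 of the 41 regions, or 39%, against 25.4% of all regions. Among regions away from protein-coding starts, GATA words occurred in 13 of 28 members, or 46.4%, against 34.9%. C/EBP words were found in 22% of members (7.28% of all regions), AP-1 words in 19.5% (8.51%) and RUNX words in 24.4% (12.5%). The words for PU.1 (2.44% against 1.55%), EGR factors (4.88% against 3.79%) and the MITF E-box (2.44% against 4.63%) were found in 1, 2 and 1 members. These shares describe letters near summits and say nothing of whether a factor was bound.

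Related genes were described in the same way, from lists chosen with earlier results known. Of 16 other myeloid transcription factors, 12 were open, with KLF4 (mean start rank 83), EGR2 (77.4), CEBPG (74.4) and NFE2L2 (62) the highest, and 3 were closed. Of 20 granulocyte and monocyte genes 4 were open: the cytokine receptors CSF1R (55.2) and CSF2RB (54.2), the lipopolysaccharide receptor CD14 (42.9) and the granule protein AZU1 (30.9). The other granule and phagocyte genes were mostly closed, with 14 of the 20 lacking a start peak in every library. Of 19 mast cell and basophil genes 7 were open, led by the ectoenzyme ENPP3 (89.2), the interleukin receptor chain IL5RA (81.2), the lipoxygenase ALOX5 (61.3) and the leukotriene synthase LTC4S (40), and 9 were closed. Both 20% of the granulocyte and monocyte list and 36.8% of the mast cell list lie below the 60.7% of all protein-coding genes, and 19 and 13 of their genes are in the lowest tercile by CpG content, where 25.7% of all genes were open.

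For comparison, 93.8% of the erythroid list was open, GFI1B (96.6), ZFPM1 (79), EPB42 (74.7) and TAL1 (70.2) having the highest start ranks. The median start rank of its open genes was 48.4, against 49.5 for the open genes among the 10. The paralogs GFI1B and GFI1 thus differed: the first was open in all 4 libraries and the second in 2. Markers of other lineages were not all closed. In the lymphoid list 5 of 10 genes were open, PAX5 (93.7), EBF1 (71.4) and GATA3 (55.8) among them. In the megakaryocyte list ITGA2B (51.6) was the only open gene of 8, and in the non-blood list COL1A1 (74.6) and CDH1 (70.4) were open of 10. An open start therefore occurred in genes of unrelated tissues too, and for the 10 genes it is a statement on accessibility alone.

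**Figure D5:**
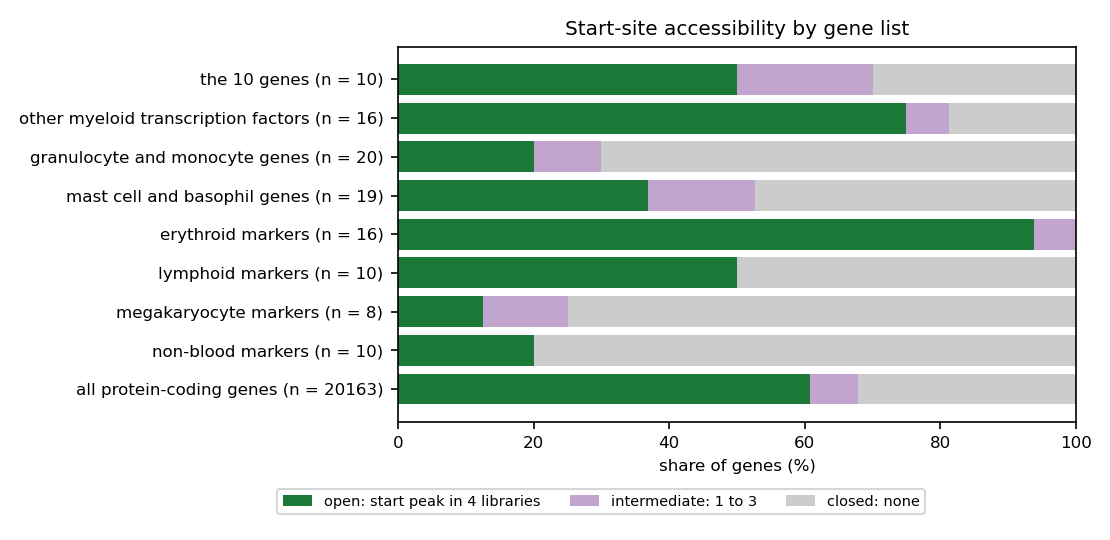
Share of genes in percent with a start-site peak in all 4 libraries (open), in 1 to 3 (intermediate) and in none (closed), for the 10 genes, the comparison lists and all protein-coding genes, with the number of genes beside each name. The 10 genes lie at 50% open, as does the lymphoid list. The erythroid list (93.8%), the other myeloid transcription factors (75%) and all protein-coding genes (60.7%) lie above. The mast cell and basophil list (36.8%), the granulocyte and monocyte and the non-blood lists (20% each) and the megakaryocyte list (12.5%) lie below.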

How the data were processed

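ATAC-seq peak lists of the 4 sgControl HUDEP-2 libraries were analysed, 1 list per library as deposited by the authors, with replicates not pooled. The 10 genes, the other gene lists and the rules were chosen with earlier results of these data known. Per the methods of the study, paired-end reads went through the ENCODE ATAC-seq pipeline, and the submitters' processing notes name bcl2fastq, Bowtie2 and SAMtools. The caller and its settings are not given in the sources used here. The labels and methods name hg38 whereas the first line of each list and the series description name hg19. All peaks ended inside the hg19 (GRCh37) chromosomes, so hg19 was used, with GENCODE release 44 lifted to GRCh37.

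The deposited columns are a fold enrichment, the −log10 p-value and −log10 q-value of each summit, and a whole-number score by the authors that was not used. The fold enrichment is the ratio of summit pileup to local background in the same library, with 1 added to each. This addition lowers the ratio most where the background is low. The highest q-value was 0.0497. From fold enrichment and −log10 p, the whole-number pileup was recovered for 100% of peaks with a −log10 p under 300, within a relative error of 0.0001. Counting intervals were not computed because fragment totals are unknown.

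Peaks sharing 1 bp were merged into regions, and the highest-ranked peak of a library stood for it. After a test on simulated data, limma 3.58.1 (R 4.3.3, empirical Bayes with trend, two-sided) was run over the 22398 regions called in all 4 libraries. Its input was log2 fold enrichment centred on the median, without a pseudocount beyond the 1 in the deposited ratio. Called means a Benjamini-Hochberg adjusted p under 0.05. Regions missing in a library have no value and were described by where they were called. The MAnorm comparison of the study needs reads and was not repeated. Python 3.11.15 with pandas 2.3.3 and SciPy 1.17.1 was used elsewhere. The text names, for each gene, its start regions, its highest-ranked region and every region called in 1 treatment alone, with a rank gain or loss, or called by limma, and up to 4 open genes per other list, plus any erythroid marker that was not open. CpG content was taken over 500 bp on each side of the 5′ end. The methods of the study call the replicates biological duplicates. Peak names inside the lists carry other replicate numbers than the labels, and the labels were followed. Alternatives were quantile normalization, recovered pileup, a replicate block, a stricter q, equal peak numbers, merging by summit, other distances and rank gaps, starts of protein-coding transcripts alone, and leaving out each library.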

Additional observations from a re-analysis of the deposited data

How the results depend on the processing

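At the 10 genes, limma called 0 regions in either direction with quantile normalization, recovered summit pileup, a replicate block, a −log10 q of at least 5, equal numbers of peaks, merging by summits, assignment within 15 kb and each library left out. Over the genome the calls were 0 with all 4 libraries in every such fit, and 0 to 9 higher and 0 to 5 lower with a library left out, where the lone sample of a group is assumed to vary like the other group. The study does not state that replicate numbers pair the samples. The correlation of deviations between same-numbered libraries was 0.0121, which with 2 libraries per treatment cannot settle whether they are paired. The replicate block gave 0 calls at the 10 genes and 0 over the genome. With it the lowest limma adjusted p over the genome was 0.0612, against 0.437 without it. A start window of 3 kb made 8 genes open and 1 closed, since the peaks of IRF8, HDC and CPA3 near their starts were then counted. Starts of protein-coding transcripts alone gave 4 open and 4 closed genes, CEBPE losing its call, and closed genes were 4 with a 500 bp window, with a −log10 q of at least 5 and without SCF replicate 2, CPA3 losing its peak. The rank gains were 5 at a gap of 5 points and 0 at 20. The regions called in both PBS and neither SCF library were 2 with equal numbers of peaks and 2 with merging by summits. With a library left out, the counts ran from 0 to 5 for SCF alone, 1 to 4 for PBS alone, 1 to 5 for rank gains and 1 to 2 for rank losses, and the difference in peak number from −5 to 3. The cause of these shifts was not tested, but a group of 1 library meets such rules more easily by construction. Shares over all regions or all genes at these changed settings are not given here. The counts therefore show how far the rules matter and are not a result about the 10 genes.

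Of the 17 named regions called in all 4 libraries, no log2 difference passed the threshold under any alternative. With all libraries 96 of 98 values kept their sign. Recovered pileup reversed GFI1 at 33.7 kb (−0.0612) and MS4A2 at 38.8 kb (−0.105), and raised the SPI1 start to 0.717, CEBPB at 6.8 kb to 0.724, the SLC7A8 start to 0.42 and IRF8 to 0.335. With a library left out 15 of 68 values reversed. The ranges were −0.193 to 0.0728 for the SLC39A13 start, −0.467 to 0.351 for CEBPA and −0.0414 to 0.0706 for the merged region over CEBPB. They were −0.386 to 0.539 for GFI1 at 33.7 kb, −0.204 to 0.24 for IRF8 and −0.174 to 0.0829 for the MITF start. For CPA3 they were −0.227 to 0.116 at −24.6 kb and −0.472 to 0.20 near its start, and for MS4A2 −0.372 to 0.386. CEBPB at −24.7 kb (0.31 to 0.40) and at 6.8 kb (0.37 to 0.46), MITF at −2.28 kb (0.25 to 0.41) and the SPI1 start (0.26 to 0.55) kept their sign in these fits. So did the CEBPE start (0.171 to 0.26) and the SLC7A8 start (0.186 to 0.302). HDC at 2.43 kb (−0.327 to −0.0433) and CEBPA at 48.1 kb (−0.295 to −0.0285) kept theirs as well, lower with SCF. Fragment totals are unknown, so the part of depth at weak sites was not tested.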
